A study of Mus musculus with 12 samples.

Results

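Antiviral interferon-stimulated genes were followed in bone marrow-derived macrophages (BMDM) of the mouse that were embedded in a collagen-based hydrogel. They were chosen by name as 56 genes, and all 56 are listed in the deposited table of 14098 genes and reached the level set for testing, at least 1 TPM in at least 2 of 12 libraries, as did 11194 genes in all. TPM is a level per transcript length, scaled so that every library has the same total. The members fall into 8 groups by what their proteins do: 4 of the IFIT family, 6 of the OAS family, 7 sensors of RNA and other nucleic acids, 7 genes of the ubiquitin-like ISG15 system and TRIM ligases, 4 of the PARP family and its partner Dtx3l, 8 GBP and IRG GTPases, 10 other antiviral effectors and 10 other interferon-induced genes.

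The BMDM came from male and female C57Bl/6 mice of 8 to 10 weeks, either wild type (WT) or with a germline deletion of Camkk2 (Camkk2-/-, labelled KO), a change that every cell of the mouse carries and not macrophages alone. Cells of each genotype were kept in the soft gel, in the soft gel with IL-4, or in a gel that was stiffened 24 h after encapsulation by UV light and the photoinitiator Irgacure 2959, with culture for 48 h afterwards. The stiff gel also held more collagen than the soft gel, so the stiff groups differed in light, initiator and collagen as well as stiffness. The 6 groups are called WT soft, WT soft+IL-4, WT stiff, KO soft, KO soft+IL-4 and KO stiff, and each holds 2 libraries, described as biological replicates. The number of mice behind a library and the IL-4 dose of the sequenced cultures are not given in the sources used here.

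As background, type I interferon is made when a cell senses viral nucleic acid, and it acts back on the same and neighbouring cells. Its receptor (Ifnar1 with Ifnar2) activates the kinases Jak1 and Tyk2 and a factor complex with Stat2 and Irf9, which binds the interferon-stimulated response element (ISRE) before its target genes. Interferon gamma acts through Ifngr1 and Ifngr2 and on genes with a gamma-activated site (GAS). Cultured macrophages keep a low tonic level of this programme without infection, and the members below are its effectors.

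The targeted gene was read first. Camkk2 stood at 44.2 and 11.7 TPM in WT soft, 30.5 and 29.8 in WT soft+IL-4, 23.3 and 23.7 in WT stiff, 46.6 and 11.4 in KO soft, 11.5 and 8.54 in KO soft+IL-4 and 37.7 and 10.01 in KO stiff. Camkk2 was high in KO soft 1 and KO stiff 1, as in WT soft 1, and low in WT soft 2, so Camkk2 goes against 3 labels, and where this bears on a result they are called the libraries labelled WT soft 2, KO stiff 1 and KO soft 1. The libraries labelled WT soft 1 and KO soft 1 lay close to each other over the 56 members (median absolute difference 0.081 in log2(TPM + 1)), as did WT soft 2 and KO soft 2 (0.077), while WT soft 1 and WT soft 2 were 0.212 apart. Over all tested genes the same 3 distances were 0.144, 0.079 and 0.149, so there WT soft 1 lay about as far from KO soft 1 as from WT soft 2. The largest gap between replicates was that of WT stiff 1 and WT stiff 2, at 1.126 over the members and 0.317 over all tested genes. WT stiff 1 held the lowest value of 53 of the 56 members, and WT stiff 2 that of the other 3 (Trim25, Parp9 and Isg20). Replicate 1 of every group had more genes listed at 0 (10.7 to 13.4%) than replicate 2 (5.9 to 7.54%). Of 8 macrophage markers, 8 were present in every library, and their summed level was 46000 to 58000 TPM in both soft groups and KO stiff, and 23600 to 25600 in WT soft+IL-4, WT stiff and KO soft+IL-4, most of it Lyz2, the macrophage lysozyme. Markers of plasmacytoid dendritic cells, which make much type I interferon, summed to 14.2 to 23.5 TPM over 8 genes in every group. Of that sum Tcf4 alone held 8.18 to 16.6 TPM, and Siglech at most 2.08. Markers of T or NK cells summed to at most 1.61 over 4 listed genes, with Cd3e, Cd3g and Ncr1 not listed. The other lists summed to at most 5.65 TPM for dendritic cells, 26.2 for neutrophils (Ly6g and Camp not listed), 3.38 for B cells, 2.68 for mast cells or basophils and 1.29 for fibroblasts. The part of these marker levels in the results was not tested, and in bulk libraries fewer cells that make a transcript and less of it in each cell cannot be told apart.

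**Figure D1:**
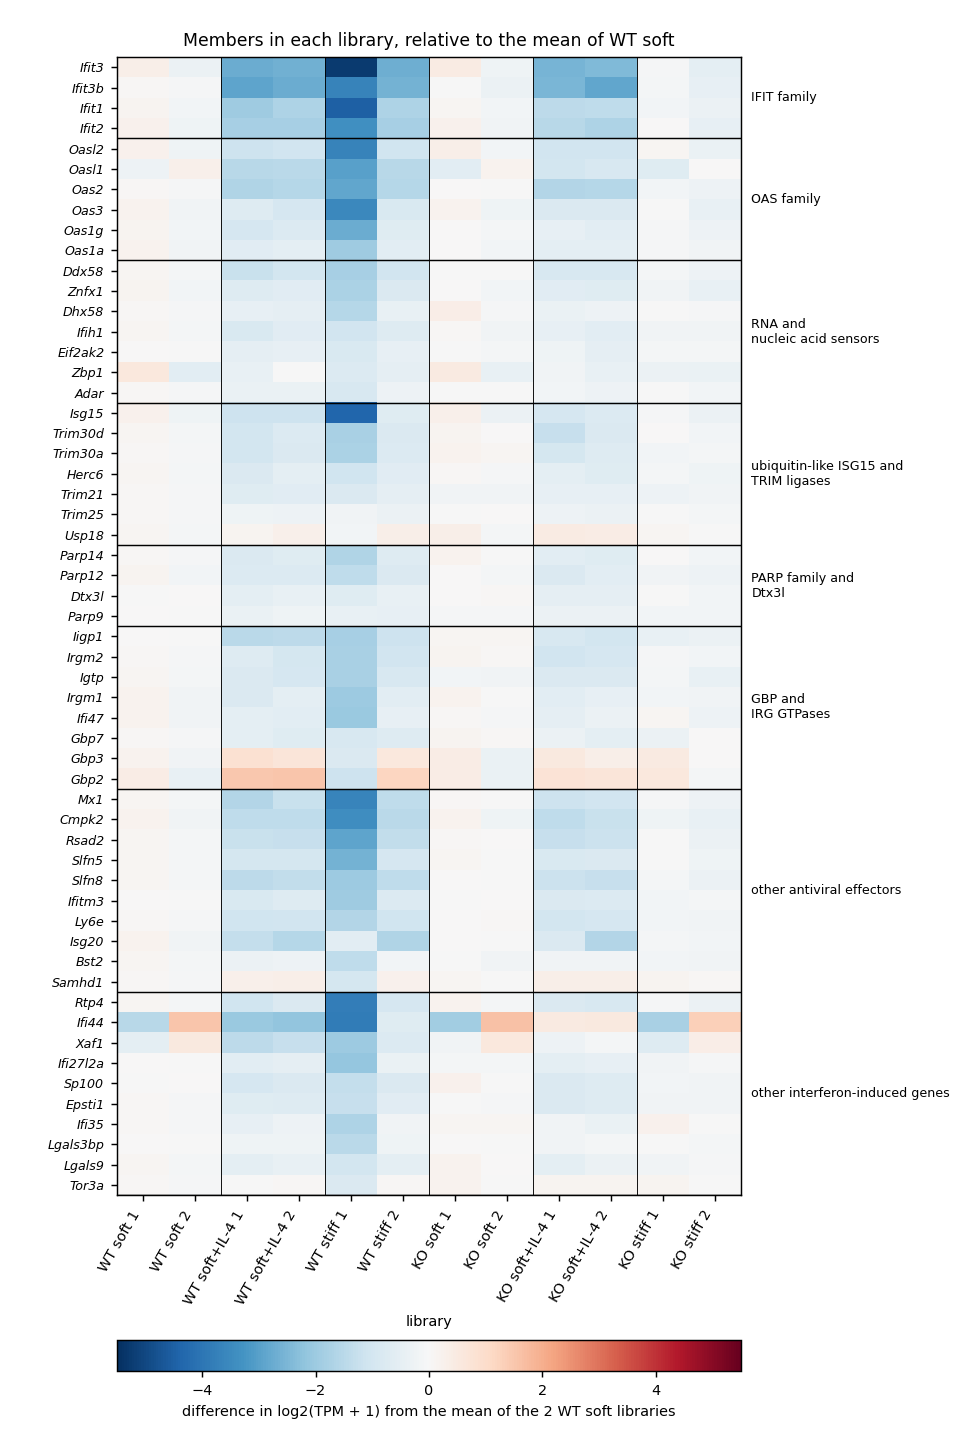
Each row is a member and each column a library, and the colour gives the difference in log2(TPM + 1) from the mean of the WT soft libraries, with rows ordered within each functional group by their difference between WT stiff and WT soft. The columns WT soft+IL-4, WT stiff and KO soft+IL-4 are mostly blue, WT stiff 1 is the darkest, KO stiff is pale like KO soft, and Gbp2, Gbp3, Usp18 and Ifi44 break the pattern.

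What the members share in sequence was read from RefSeq promoter windows (GRCm38.p6), each with 250 bases before and 50 after an annotated start, which were held for 44 of the 56 members. The ISRE was searched as GAAANNGAAA and the GAS as TTCNNNGAA, where N is any base, on both strands, and overlapping matches were each counted. The ISRE letters were found in 25 of 44 members (56.8%), against 3.99% of 27025 genes with a window and 4% of the 8600 tested genes among them. The GAS letters were found in 12 of 44 (27.3%), against 9.55% of all genes with a window. By group, the ISRE letters were in 6 of 7 GBP and IRG genes, 3 of 4 IFIT genes, 4 of 6 ISG15 and TRIM genes, 3 of 5 OAS genes, 3 of 5 sensors, 5 of 8 other effectors, 1 of 7 other interferon-induced genes and 0 of 2 PARP genes. A match is a description of the letters and not a shown binding site, and a window without one says only that these letters are not in it.

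The stretches below show the ISRE letters (in capitals, with the GAS letters of Irgm2 also in capitals) before some of the members. They are written 5′ to 3′ on the strand of the gene and come from GRCm38. All lie before the RefSeq start of the window and outside annotated exons of GENCODE vM21. The stretch of Irgm2 lies within the GENCODE gene (chromosome 11, 58199618 to 58222782).
Ifit1 (chr19:34640764-34640815, + strand): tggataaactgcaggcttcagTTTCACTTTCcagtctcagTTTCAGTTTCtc
Ifit3 (chr19:34583364-34583434, + strand): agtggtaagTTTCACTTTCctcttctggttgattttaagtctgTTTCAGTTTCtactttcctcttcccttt
Ifit3b (chr19:34607760-34607830, + strand): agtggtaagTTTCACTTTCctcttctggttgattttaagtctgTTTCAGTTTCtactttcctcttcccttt
Isg15 (chr4:156200858-156200918, - strand): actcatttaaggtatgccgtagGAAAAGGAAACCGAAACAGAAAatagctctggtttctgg
Oas1a (chr5:120907526-120907585, - strand): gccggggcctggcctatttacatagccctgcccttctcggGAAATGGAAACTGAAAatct
Rsad2 (chr12:26456532-26456592, - strand): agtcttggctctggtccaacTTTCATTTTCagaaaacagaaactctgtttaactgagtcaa
Slfn8 (chr11:83020825-83020885, - strand): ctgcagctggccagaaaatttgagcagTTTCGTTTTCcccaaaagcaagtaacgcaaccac
Trim30d (chr7:104507859-104507919, - strand): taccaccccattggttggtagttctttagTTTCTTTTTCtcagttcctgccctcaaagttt
Irgm2 (chr11:58214882-58214942, + strand): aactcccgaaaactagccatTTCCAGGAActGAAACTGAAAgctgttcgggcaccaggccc
The printed stretches of Ifit3 and Ifit3b, neighbours on chromosome 19, are identical over 71 bases and hold the letters on the reverse strand in 2 places, as does Ifit1. Isg15 holds 3 overlapping matches and Oas1a 2, and in Irgm2 a GAS match ends just before the ISRE match. Over all windows of the members, 31 of 40 ISRE matches lay before the start, the first base of the match at a median of 64 bases from it (range 12 to 188), and 5 members (Ddx58, Eif2ak2, Ifih1, Ifitm3 and Trim21) held one only after it.

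**Figure D2:**
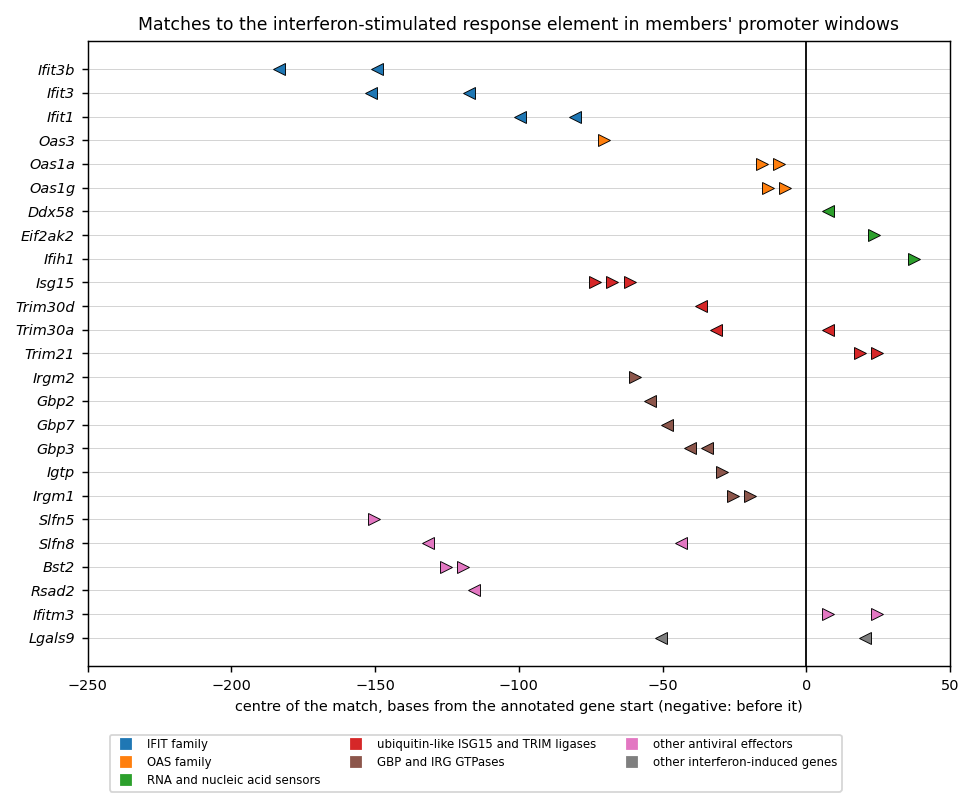
Each triangle is 1 match to the ISRE letters in a member's promoter window, placed by the distance of its centre from the annotated gene start and pointing along the strand of the match, with colour for the functional group. Most of the 40 matches lie before the start, and the farthest is 1 of those of Ifit3b.

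The first question was what IL-4 and the stiff gel did to the members in WT BMDM. Both groups stood below WT soft: 9 of 56 members fell with IL-4 and 25 fell in the stiff gel, while 0 rose in either (DE genes had an adjusted p under 0.05 in limma and an absolute log2 difference of at least 1 in log2(TPM + 1), and differences are given ± SE). Over all tested genes 2.17% fell and 1.59% rose with IL-4, and 2.23% fell and 1.73% rose in the stiff gel. The members' median log2 difference was -0.77 with IL-4 and -1.25 in the stiff gel, beside -0.048 and 0.016 over all genes. Both WT soft+IL-4 libraries lay below both WT soft libraries for 50 members (35% of all genes), and both WT stiff libraries did so for 49 (22.7% of all genes). Zbp1, Usp18, Gbp2, Gbp3, Samhd1 and Tor3a overlapped with WT soft or lay above it in each case, and Ifi44 also in the stiff gel. The 2 contrasts share the WT soft libraries. In each fit of this paragraph with libraries left out, fewer of all genes were called too than in the full model. Without WT soft 1 or WT soft 2 the number that fell with IL-4 was 4, and without WT soft+IL-4 1 or 2 it was 3 or 5. With all of the libraries labelled WT soft 2, KO stiff 1 and KO soft 1 left out it was 0 with IL-4 and 3 in the stiff gel.

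The size of the stiff response rested on WT stiff 1. Without WT stiff 1, 16 members fell, the median was -0.71 and 477 of 11194 genes were called in either direction. Without WT stiff 2, 41 fell, the median was -1.76 and 1108 genes were called. A group left with 1 library takes its spread from the other groups. Fewer of all genes were called without WT soft 1 or WT soft 2 than with both. Without WT soft 1, 11 fell, and without WT soft 2, 15. With only the 4 WT soft and WT stiff libraries in the model, 0 members were called and 36 had an unadjusted p under 0.05. Of all tested genes 0 were called and 1374 had an unadjusted p under 0.05. WT stiff 2 lay within 0.25 of the mean of WT soft+IL-4 in log2(TPM + 1) for 50 of 56 members, and so did 87.9% of all genes. The 6 others were Ifi44, Xaf1, Isg15 and Iigp1, which were higher in WT stiff 2, and Gbp2 and Zbp1, which were lower. From WT stiff 2 to WT stiff 1 the members' median dropped by a further 1.13, beside a median over all genes of 0.132, which is a higher level in WT stiff 1.

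**Figure D3:**
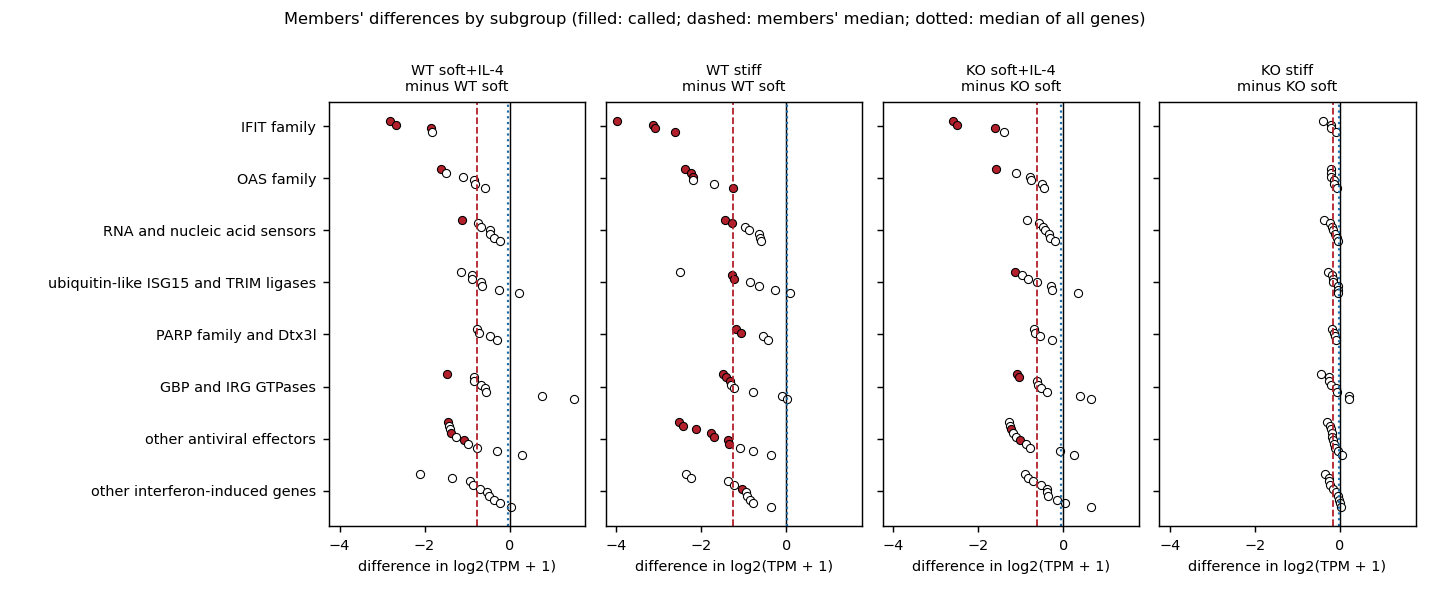
Each point is a member's log2 difference, by functional group, in 4 comparisons, filled where it was called. The IFIT family lies farthest to the left in WT soft+IL-4, WT stiff and KO soft+IL-4, the dashed line at the members' median is at -0.77, -1.25 and -0.61, and in KO stiff it is at -0.17 with every point open.

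The IFIT family showed the largest differences of the 8 groups. Its proteins bind viral RNA that lacks the host cap marks and block its translation. All 4 members fell in WT stiff (median log2 difference -3.12) and 3 of 4 with IL-4 (-2.26). Ifit3 stood at 104 and 67.1 TPM in WT soft, 11.8 and 12.5 in WT soft+IL-4, 1.21 and 11.9 in WT stiff, 113 and 71.3 in KO soft, 13.5 and 14.6 in KO soft+IL-4 and 80.4 and 57.5 in KO stiff. The soft and KO stiff libraries were high, the IL-4 libraries of both genotypes and WT stiff 2 lay together between 11.8 and 14.6 TPM, and WT stiff 1 was lowest. The difference of Ifit3 was -2.68 ± 0.64 (adjusted p = 0.0278) with IL-4 and -3.98 ± 0.64 (adjusted p = 0.00446) in the stiff gel. Its close copy Ifit3b followed at a lower level. Ifit3b stood at 12.4 and 11.3 TPM in WT soft, 0.699 and 0.957 in WT soft+IL-4, 0 and 1.14 in WT stiff, 11.6 and 9.38 in KO soft, 1.28 and 0.791 in KO soft+IL-4 and 10.9 and 8.50 in KO stiff. WT stiff 1 was listed at 0, and no IL-4 or WT stiff library overlapped with a soft one. Ifit3b fell by 2.82 with IL-4 (SE 0.32, adjusted p = 0.000844) and by 3.14 in the stiff gel (SE 0.32, adjusted p = 0.000387). Of the 31-base words in Ifit3 transcripts, 61.8% also occur in Ifit3b and 54.1% the other way, so how reads were split between the 2 genes is uncertain. Ifit2, which shares 0% of its words with another gene, changed least of the 4 in the stiff gel and still fell. Ifit2 stood at 57.9 and 42.3 TPM in WT soft, 13.04 and 13.1 in WT soft+IL-4, 3.81 and 13.1 in WT stiff, 57.8 and 42.7 in KO soft, 16.5 and 14.7 in KO soft+IL-4 and 50.2 and 35.8 in KO stiff. Its difference was -2.62 ± 0.41 (adjusted p = 0.00401) in WT stiff, and -1.85 ± 0.41 (adjusted p = 0.0208) with IL-4. The IFIT genes form 1 cluster (chromosome 19, 34550694 to 34650009).

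Members of the OAS family make 2-5A, the signal that switches on RNase L, though not all of them are active enzymes. In the stiff gel 4 of 6 members fell (Oas1a, Oas2, Oasl1 and Oasl2, median of the family -2.20), and with IL-4 Oas2 alone did (median -0.96). Oasl2 stood at 105 and 76.05 TPM in WT soft, 40.3 and 42.7 in WT soft+IL-4, 6.001 and 41.3 in WT stiff, 111 and 79.8 in KO soft, 42.9 and 42.9 in KO soft+IL-4 and 96.00 and 69.5 in KO stiff. Oasl1 stood at 10.6 and 16.3 TPM in WT soft, 3.86 and 4.12 in WT soft+IL-4, 0.778 and 3.97 in WT stiff, 8.47 and 15.3 in KO soft, 6.06 and 6.65 in KO soft+IL-4 and 7.97 and 13.2 in KO stiff. WT stiff 1 was 6.89 times below WT stiff 2 in Oasl2, and WT stiff 2 lay between the WT soft+IL-4 libraries in both genes. The differences in the stiff gel were -2.39 ± 0.63 (adjusted p = 0.0424) for Oasl2 and -2.25 ± 0.46 (adjusted p = 0.0137) for Oasl1. Oas1a stood at 142 and 110.1 TPM in WT soft, 80.6 and 85.6 in WT soft+IL-4, 31.5 and 84.3 in WT stiff, 127 and 112 in KO soft, 86.4 and 86.1 in KO soft+IL-4 and 119 and 109.9 in KO stiff. Oas1a, the most abundant of the family, had the smallest difference, -1.26 ± 0.34 (adjusted p = 0.0473), and 68.7% of its words occur in Oas1g, which makes their split uncertain. Oas2 is added here because it passed in 4 comparisons. Oas2 stood at 43.2 and 39.9 TPM in WT soft, 12.4 and 13.4 in WT soft+IL-4, 4.90 and 13.4 in WT stiff, 41.6 and 41.4 in KO soft, 12.8 and 13.5 in KO soft+IL-4 and 37.4 and 33.7 in KO stiff. The IL-4 and WT stiff libraries were below all others, and Oas2 fell with IL-4 by 1.61 (SE 0.32, adjusted p = 0.0114) and in the stiff gel by 2.21 (SE 0.32, adjusted p = 0.00245). Oas3 (log2 difference -2.19, adjusted p = 0.0657) and Oas1g (-1.70, adjusted p = 0.0581) did not pass in the stiff gel. Oas2, Oas3, Oas1g and Oas1a lie together (chromosome 5, 120730333 to 120907521), on the chromosome that carries Camkk2 (122731170 to 122779409), and Oasl2 and Oasl1 lie apart (chromosome 5, 114896936 to 114937915).

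The sensors include Ddx58 (RIG-I) and Ifih1 (MDA5), which detect viral RNA, Dhx58 (LGP2), their regulator, Zbp1, which binds Z-form nucleic acid, the kinase Eif2ak2 (PKR), the RNA editor Adar and the helicase Znfx1. Their differences were smaller than those of the IFIT genes, with a median of -0.89 in the stiff gel, where Ddx58 and Znfx1 fell, and -0.47 with IL-4, where Ddx58 did. Ddx58 stood at 35.5 and 30.2 TPM in WT soft, 13.6 and 15.6 in WT soft+IL-4, 8.48 and 15.3 in WT stiff, 32.3 and 32.2 in KO soft, 17.3 and 17.4 in KO soft+IL-4 and 30.6 and 26.5 in KO stiff. Znfx1 stood at 98.3 and 78.6 TPM in WT soft, 53.4 and 56.6 in WT soft+IL-4, 25.4 and 50.1 in WT stiff, 88.96 and 78.8 in KO soft, 57.3 and 54.5 in KO soft+IL-4 and 75.7 and 65.8 in KO stiff. Both genes were lower in every IL-4 and WT stiff library than in any soft or KO stiff one. Ddx58 differed by -1.12 ± 0.22 (adjusted p = 0.0111) with IL-4 and by -1.44 ± 0.22 (adjusted p = 0.00318) in the stiff gel, and Znfx1 by -1.28 ± 0.25 (adjusted p = 0.0125) in the stiff gel. Ifih1 stood at 18.04 and 15.6 TPM in WT soft, 8.95 and 10.5 in WT soft+IL-4, 7.51 and 9.83 in WT stiff, 17.5 and 14.4 in KO soft, 12.1 and 11.04 in KO soft+IL-4 and 14.4 and 14.4 in KO stiff. Ifih1 did not reach the fold limit, at -0.89 ± 0.16 (adjusted p = 0.00759) in WT stiff. Adar stood at 32.4 and 30.1 TPM in WT soft, 23.7 and 24.1 in WT soft+IL-4, 16.4 and 25.2 in WT stiff, 30.6 and 30.96 in KO soft, 27.7 and 25.9 in KO soft+IL-4 and 30.6 and 27.9 in KO stiff. Adar, whose own lowest value was in WT stiff 1, had the smallest difference of the sensors in the stiff gel (-0.59 ± 0.17, adjusted p = 0.0512), and Zbp1 was the one whose WT soft libraries, at 108 and 48.9 TPM, spanned most of its range.

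Isg15 is a ubiquitin-like modifier, Herc6 its ligase in the mouse and Usp18 the protease that removes it and also restrains the interferon receptor. Isg15 stood at 214 and 153 TPM in WT soft, 80.5 and 82.3 in WT soft+IL-4, 7.88 and 113 in WT stiff, 220.2 and 142 in KO soft, 94.4 and 106 in KO soft+IL-4 and 173 and 144 in KO stiff. WT stiff 1 was 14.4 times below WT stiff 2, and WT stiff 2 lay above the WT soft+IL-4 libraries. The difference in the stiff gel did not pass (-2.51 ± 0.88, adjusted p = 0.112). Usp18 stood at 36.5 and 31.03 TPM in WT soft, 37.1 and 41.3 in WT soft+IL-4, 30.00 and 42.7 in WT stiff, 41.7 and 30.8 in KO soft, 46.6 and 44.97 in KO soft+IL-4 and 35.99 and 33.3 in KO stiff. Usp18 had the smallest difference of its group in the stiff gel, 0.09 ± 0.18 (adjusted p = 0.824), and was highest in KO soft+IL-4. Trim30a and Trim30d, TRIM proteins of the rodent, were the members of this group that fell in the stiff gel (group median -0.85), and 0 fell with IL-4 (-0.68). Trim30d stood at 23.2 and 19.97 TPM in WT soft, 10.1 and 12.5 in WT soft+IL-4, 5.57 and 11.9 in WT stiff, 24.3 and 21.97 in KO soft, 8.27 and 12.04 in KO soft+IL-4 and 21.6 and 19.00 in KO stiff. Its IL-4 and WT stiff libraries lay below all others, and the difference was -1.29 ± 0.28 (adjusted p = 0.0201) in WT stiff. Trim25, the ligase that activates RIG-I, spanned 77.6 to 101.5 TPM over all 12 libraries. Trim21 stood at 23.1 and 20.7 TPM in WT soft, 13.2 and 14.00 in WT soft+IL-4, 12.2 and 15.03 in WT stiff, 19.2 and 19.1 in KO soft, 15.8 and 15.8 in KO soft+IL-4 and 17.7 and 19.2 in KO stiff. Trim21, an intracellular antibody receptor, differed by -0.65 ± 0.12 (adjusted p = 0.00915) with IL-4 and did not reach the fold limit.

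PARP proteins add ADP-ribose to targets, and Parp9 works in a complex with the ligase Dtx3l. Parp14 and Parp12 fell in the stiff gel and Parp9 and Dtx3l did not reach the fold limit (group median -0.81), and 0 of 4 fell with IL-4 (-0.60). Parp14 stood at 68.5 and 61.9 TPM in WT soft, 37.2 and 40.5 in WT soft+IL-4, 19.7 and 39.8 in WT stiff, 73.7 and 63.8 in KO soft, 43.00 and 41.3 in KO soft+IL-4 and 65.6 and 58.6 in KO stiff. Parp12 stood at 58.8 and 46.5 TPM in WT soft, 30.4 and 30.4 in WT soft+IL-4, 19.5 and 30.1 in WT stiff, 53.8 and 48.3 in KO soft, 29.4 and 34.2 in KO soft+IL-4 and 46.3 and 42.8 in KO stiff. In both genes WT stiff 1 was lowest and WT stiff 2 lay within or beside the IL-4 libraries. The differences were -1.19 ± 0.25 (adjusted p = 0.0164) for Parp14 and -1.08 ± 0.19 (adjusted p = 0.007) for Parp12. Parp9 stood at 37.6 and 35.8 TPM in WT soft, 28.1 and 31.5 in WT soft+IL-4, 27.6 and 26.6 in WT stiff, 35.2 and 35.1 in KO soft, 28.9 and 29.4 in KO soft+IL-4 and 32.98 and 32.9 in KO stiff. Parp9 had the smallest difference of its group, -0.42 ± 0.09 (adjusted p = 0.0167), with WT stiff 2 lowest. Parp14, Dtx3l and Parp9 are neighbours (chromosome 16, 35832874 to 35972605).

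The GBP and IRG GTPases, best known as targets of interferon gamma, coat the vacuoles of intracellular pathogens, and they did not share 1 direction. Igtp, Irgm2 and Iigp1 fell in the stiff gel and Iigp1 with IL-4, whereas Gbp2 and Gbp3 stood higher with IL-4. Gbp2 stood at 65.7 and 37.3 TPM in WT soft, 139 and 146 in WT soft+IL-4, 21.9 and 114 in WT stiff, 66.7 and 38.4 in KO soft, 82.95 and 78.7 in KO soft+IL-4 and 73.7 and 46.04 in KO stiff. The IL-4 libraries of WT were above every other library, WT stiff 2 came next and WT stiff 1 was the lowest of all, and the mean difference between WT stiff and WT soft was 0.02 ± 0.62 (adjusted p = 0.987). The difference with IL-4 was 1.51 ± 0.62 and did not pass (adjusted p = 0.165), although the groups did not overlap. With only the WT soft and WT soft+IL-4 libraries in the model, Gbp2 was called higher, beside 523 of 11194 genes called in either direction. Gbp3 had the same order of WT groups, with 18.7 and 13.99 TPM in WT soft, 29.6 and 26.5 in WT soft+IL-4 and 8.97 and 24.96 in WT stiff, and a difference with IL-4 of 0.76 ± 0.41 (adjusted p = 0.292). With IL-4 in KO the differences were 0.66 ± 0.62 (adjusted p = 0.581) for Gbp2 and 0.39 ± 0.41 (adjusted p = 0.637) for Gbp3. Irgm2 stood at 25.6 and 23.6 TPM in WT soft, 14.7 and 12.3 in WT soft+IL-4, 6.41 and 11.5 in WT stiff, 27.2 and 25.8 in KO soft, 11.3 and 12.5 in KO soft+IL-4 and 23.6 and 21.96 in KO stiff. Iigp1 stood at 2.58 and 2.50 TPM in WT soft, 0.257 and 0.302 in WT soft+IL-4, 0 and 0.604 in WT stiff, 2.77 and 2.77 in KO soft, 0.929 and 0.761 in KO soft+IL-4 and 1.65 and 1.87 in KO stiff. Irgm2 was low in all IL-4 and WT stiff libraries, and Iigp1, which did not exceed 2.77 TPM, was listed at 0 in WT stiff 1. Irgm2 differed by -1.41 ± 0.21 (adjusted p = 0.00297) and Iigp1 by -1.48 ± 0.25 (adjusted p = 0.00612) in the stiff gel. Gbp7, Gbp3 and Gbp2 lie within chromosome 3, 142530342 to 142638008, and Gbp7 had a negative difference with IL-4 that did not pass (-0.59, adjusted p = 0.0659). The ISRE letters were in all 3 of these windows.

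Among the other effectors 7 of 10 fell in the stiff gel (Mx1, Rsad2, Cmpk2, Ifitm3, Ly6e, Slfn5 and Slfn8, group median -1.53) and 3 with IL-4 (Isg20, Ly6e and Slfn8, -1.16). Mx1 stood at 22.4 and 19.7 TPM in WT soft, 6.11 and 8.43 in WT soft+IL-4, 0.759 and 7.28 in WT stiff, 21.7 and 20.99 in KO soft, 9.05 and 9.48 in KO soft+IL-4 and 20.1 and 17.1 in KO stiff. Cmpk2 stood at 42.8 and 31.9 TPM in WT soft, 13.4 and 13.4 in WT soft+IL-4, 2.56 and 12.6 in WT stiff, 42.7 and 31.2 in KO soft, 13.6 and 15.3 in KO soft+IL-4 and 31.2 and 27.2 in KO stiff. Mx1 is a dynamin-like GTPase, and Cmpk2 is a nucleotide kinase beside Rsad2 (viperin), an enzyme that makes a chain-terminating nucleotide (chromosome 12, 26442746 to 26479837). WT stiff 1 was well below the IL-4 libraries in both, WT stiff 2 among or near them, and the differences in the stiff gel were -2.53 ± 0.54 (adjusted p = 0.017) and -2.44 ± 0.48 (adjusted p = 0.012). Rsad2 fell by 2.14 (SE 0.38, adjusted p = 0.00807).

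Ly6e, a membrane protein that blocks coronavirus entry, and Slfn8, of the Schlafen family, were among the 3 members that fell in the stiff gel with the smallest SE. Ly6e stood at 819 and 760.5 TPM in WT soft, 367 and 385 in WT soft+IL-4, 259 and 365 in WT stiff, 797 and 830.3 in KO soft, 386 and 418 in KO soft+IL-4 and 702 and 700.2 in KO stiff. Slfn8 stood at 44.2 and 37.1 TPM in WT soft, 14.4 and 15.5 in WT soft+IL-4, 9.39 and 14.8 in WT stiff, 40.6 and 40.4 in KO soft, 17.1 and 16.4 in KO soft+IL-4 and 36.97 and 32.1 in KO stiff. In each gene the IL-4 and WT stiff libraries stood apart from all others. Ly6e differed by -1.07 ± 0.14 (adjusted p = 0.00166) with IL-4 and -1.36 ± 0.14 (adjusted p = 0.00039) in the stiff gel, and Slfn8 by -1.38 ± 0.18 (adjusted p = 0.00162) and -1.70 ± 0.18 (adjusted p = 0.000469), with 26.8% of the words of Slfn8 found in other genes. Ifitm3 stood at 3753 and 3712 TPM in WT soft, 2104 and 2260.0 in WT soft+IL-4, 960.1 and 2187 in WT stiff, 3725 and 3766 in KO soft, 2160.0 and 2196 in KO soft+IL-4 and 3346 and 3450.0 in KO stiff. Ifitm3, which stops virus fusion, was the most abundant member, lower in every IL-4 library and lowest in WT stiff 1, with -1.36 ± 0.29 (adjusted p = 0.0165) in the stiff gel. Samhd1 stood at 294 and 266 TPM in WT soft, 344 and 345 in WT soft+IL-4, 142 and 333 in WT stiff, 304 and 276 in KO soft, 349 and 345 in KO soft+IL-4 and 306 and 289 in KO stiff. Samhd1, which depletes nucleotides, was higher in each IL-4 library and in WT stiff 2 than in WT soft, and WT stiff 1 alone lay below WT soft (-0.36 ± 0.30, adjusted p = 0.519 for the group). Isg20, an RNA exonuclease, was the sole effector higher in WT stiff 1 (9.50 TPM) than in WT stiff 2 (3.96).

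The other interferon-induced genes held 1 that fell in the stiff gel, the nuclear body protein Sp100 (-1.05 ± 0.16, adjusted p = 0.00333), and 0 with IL-4 (medians -1.003 and -0.62). Ifi27l2a stood at 1919 and 1900.0 TPM in WT soft, 1280.0 and 1347 in WT soft+IL-4, 438 and 1486 in WT stiff, 1757 and 1784 in KO soft, 1329 and 1407 in KO soft+IL-4 and 1694 and 1843 in KO stiff. Rtp4 stood at 139 and 122 TPM in WT soft, 61.1 and 73.8 in WT soft+IL-4, 8.50 and 67.7 in WT stiff, 151 and 119.7 in KO soft, 73.8 and 70.01 in KO soft+IL-4 and 123 and 102 in KO stiff. Both were lowest in WT stiff 1 by a wide margin and did not pass (-1.24 ± 0.42, adjusted p = 0.0981 for Ifi27l2a, a small mitochondrial protein, and -2.36 ± 0.68, adjusted p = 0.0567 for Rtp4, a receptor transporter). Tor3a stood at 85.5 and 76.3 TPM in WT soft, 80.2 and 85.7 in WT soft+IL-4, 46.2 and 84.3 in WT stiff, 92.5 and 80.5 in KO soft, 89.8 and 88.5 in KO soft+IL-4 and 88.4 and 80.1 in KO stiff. Tor3a, a torsin ATPase, had the smallest difference of its group (-0.36 ± 0.22, adjusted p = 0.37), with WT stiff 1 apart from 11 libraries between 76.3 and 92.5 TPM.

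**Figure D4:**
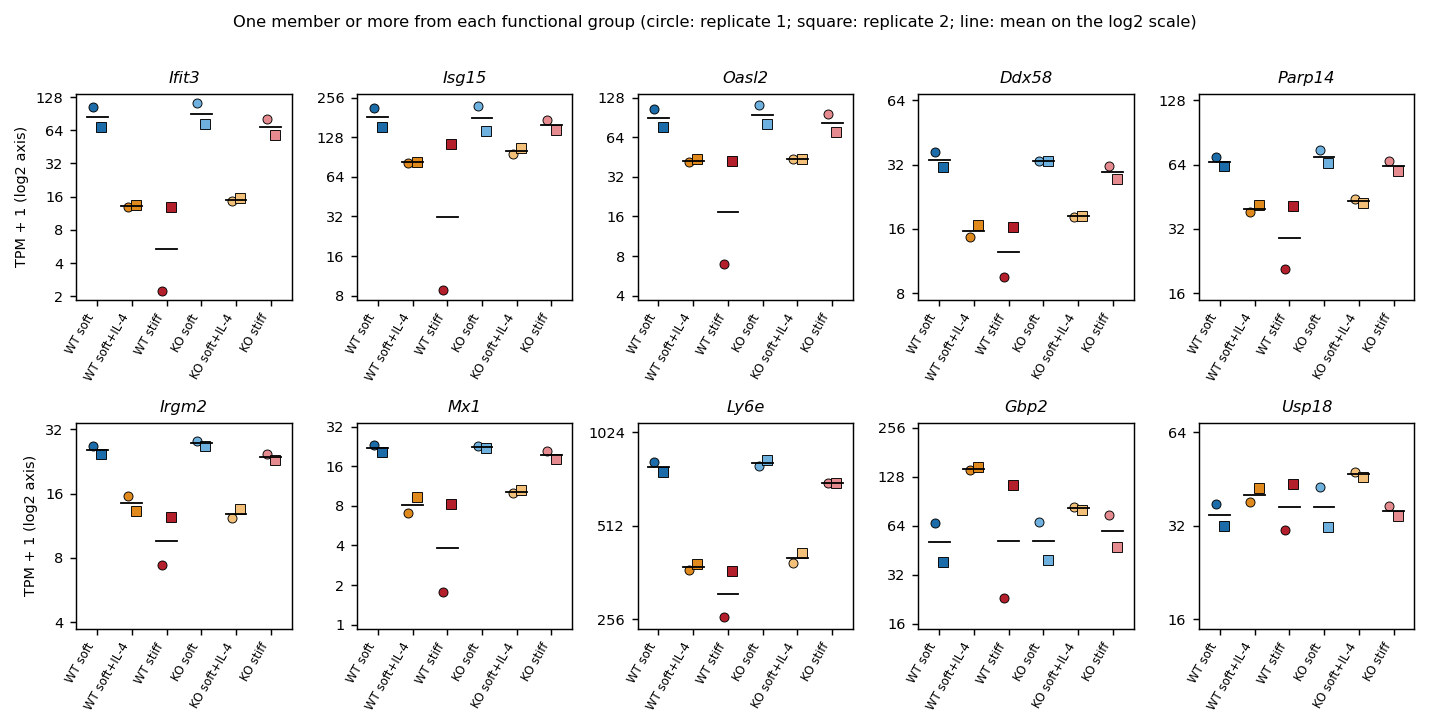
Each panel shows 1 member in the 6 groups as TPM + 1 on a log2 axis, with a circle for replicate 1, a square for replicate 2 and a line at the mean on the log2 scale. From Ifit3 to Ly6e the KO stiff points lie near the soft ones and the WT stiff square lies at the level of the IL-4 groups with the circle below it, whereas Gbp2 is highest in WT soft+IL-4 and Usp18 in KO soft+IL-4.

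Between WT stiff and WT soft+IL-4, 0 members were called, 4 had an unadjusted p under 0.05, and 0% of all genes were called (557 with an unadjusted p under 0.05). The members' median difference was -0.49, with 55 of 56 lower in WT stiff, and the lowest were Gbp2 (-1.49), Rtp4 (-1.42), Oas3 (-1.37) and Isg15 (-1.37). Isg20 was the member higher in WT stiff (0.34). Without WT stiff 1 the median was 0.02, and without WT stiff 2 it was -1.02 and 27 members were called lower, beside 956 of 11194 genes called in either direction.

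The second question was whether the deletion of Camkk2 changed these responses. With IL-4, the KO BMDM showed lower levels too, in that 9 of 56 fell and 0 rose, beside 2.09% and 1.56% of all genes, with a median of -0.61 (-0.048 over all genes). Those that fell were Ifit2, Ifit3, Ifit3b, Oas2, Trim30d, Irgm2, Iigp1, Ly6e and Slfn8. Both KO soft+IL-4 libraries were below both KO soft libraries for 47 members (35.7% of all genes). Ifit3 differed by -2.59 ± 0.64 (adjusted p = 0.0326), Ly6e by -1.02 ± 0.14 (adjusted p = 0.00209) and Slfn8 by -1.22 ± 0.18 (adjusted p = 0.00297). When libraries were left out as follows, the number called over all genes was lower as well. Without any 1 of KO soft 1, KO soft 2, KO soft+IL-4 1 and KO soft+IL-4 2, 2 to 3 members fell, and without the libraries labelled WT soft 2, KO stiff 1 and KO soft 1, 0 did. The interaction of genotype and IL-4 was called for 0 of 56 members and 0% of all genes, and its median was 0.08. An unadjusted p under 0.05 was found for 1 member (Trim21), beside 165 genes.

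The libraries labelled KO stiff stood close to those labelled KO soft, and KO stiff 1 and KO soft 1 go against their labels in Camkk2. Of the 56 members 0 were called, 0 had an unadjusted p under 0.05, and 0.0447% of all genes were called (5 genes, with 295 at an unadjusted p under 0.05). The members' median was -0.17 (-0.014 over all genes), and single members ran from -0.45 (Iigp1) to 0.21 (Gbp3). A total of 52 of 56 members had a negative difference, and both KO stiff libraries were below both KO soft libraries for 25 of them (18.7% of all genes). Without the libraries labelled WT soft 2, KO stiff 1 and KO soft 1, the median was -0.163, 0 members were called, 0 had an unadjusted p under 0.05, and 0 genes were called (72 with one). By group the medians were -0.22 for IFIT, -0.17 for OAS, -0.17 for the sensors, -0.16 for ISG15 and TRIM, -0.14 for PARP, -0.15 for GBP and IRG genes, -0.17 for other effectors and -0.13 for other interferon-induced genes.

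Set side by side in the stiff gel, the libraries labelled KO, of which KO stiff 1 goes against its label in Camkk2, stood above those labelled WT. The members' median difference was 1.12 (-0.016 over all genes). Of 56 members, 19 were higher in KO stiff than in WT stiff and 0 were lower, beside 1.37% and 0.616% of all genes. All 4 IFIT genes were among them, with 6 of 10 other effectors, 3 of 8 GBP and IRG genes, 2 of 6 OAS genes, 2 of 7 ISG15 and TRIM genes, 1 of 7 sensors, 1 of 4 PARP genes and 0 of 10 other interferon-induced genes. The members with the smallest p were Ifit3b (2.87 ± 0.32, adjusted p = 0.00142), Ly6e (1.19 ± 0.14, adjusted p = 0.00176) and Slfn8 (1.47 ± 0.18, adjusted p = 0.00209). Ifit3 differed by 3.69 ± 0.64 (adjusted p = 0.0119). Leaving out KO stiff 1 or KO stiff 2 lowered the number called over all genes too. So did leaving out the libraries labelled WT soft 2, KO stiff 1 and KO soft 1. Without WT stiff 1, 10 members were higher, the median was 0.53 and 228 of 11194 genes were called in either direction. Without WT stiff 2, 41 were higher, the median was 1.60 and 1009 genes were called. Without KO stiff 1 or KO stiff 2, 3 were higher. With only the 4 libraries of these groups in the model 0 were called and 29 had an unadjusted p under 0.05, beside 0 and 956 of 11194 genes. Fewer members than in the full model were also called without the libraries labelled WT soft 2, KO stiff 1 and KO soft 1.

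The test of the difference itself, the interaction of genotype and stiffness, used the labels, which KO soft 1, KO stiff 1 and WT soft 2 go against in Camkk2. It had an unadjusted p under 0.05 for 34 of 56 members, beside 1219 of 11194 genes. It was positive for 55 of 56 members (median 1.03, beside -0.025 over all genes), a less negative difference in libraries labelled KO. It was called for 3, Ifit3b (3.04 ± 0.46, adjusted p = 0.0182), Ly6e (1.14 ± 0.20, adjusted p = 0.0303) and Slfn8 (1.47 ± 0.26, adjusted p = 0.0303), all higher, beside 0.518% of all genes called higher and 0.152% lower. The largest estimate, that of Ifit3 (3.58 ± 0.91, adjusted p = 0.134), did not pass. Usp18 was the member with a negative value (-0.14). Leaving out any 1 of the soft or KO stiff libraries lowered the number called over all genes as well as among the members. The number called was 38 without WT stiff 2 (894 of 11194 genes), 8 without WT stiff 1 (152 genes) and 0 without any 1 of the soft or KO stiff libraries. On the soft gel, the libraries labelled KO and WT, of which KO soft 1 and WT soft 2 go against their labels in Camkk2, differed for 0 of 56 members (0% of all genes, with 0 members and 130 genes at an unadjusted p under 0.05), with a median of 0.005. Without the libraries labelled WT soft 2, KO stiff 1 and KO soft 1 the median was -0.132, 0 members were called and 1 had an unadjusted p under 0.05, beside 4 genes called and 282 at that level.

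Of 33 further genes of the interferon pathway, 31 are listed and 29 were tested. In WT stiff those that fell included Irf7, Ikbke, Tlr7, Tlr9 and Cxcl10, and 1 rose (Socs1), and with IL-4 3 fell (Irf7, Ikbke and Tlr9) and Socs1 rose. The ligand genes Ifnb1 and Ifng are not listed. The chemokine genes Cxcl9 and Cxcl11 did not exceed 0.925 TPM in any library. Irf7 stood at 171 and 202 TPM in WT soft, 43.6 and 42.8 in WT soft+IL-4, 10.9 and 51.6 in WT stiff, 182 and 203 in KO soft, 67.5 and 70.5 in KO soft+IL-4 and 144 and 163 in KO stiff. Irf7, the factor that amplifies type I interferon, differed by -2.08 ± 0.51 (adjusted p = 0.0302) with IL-4 and -2.90 ± 0.51 (adjusted p = 0.00707) in the stiff gel, and its IL-4 and WT stiff libraries did not overlap with the rest. Stat2 stood at 68.1 and 55.9 TPM in WT soft, 41.02 and 43.8 in WT soft+IL-4, 21.7 and 44.1 in WT stiff, 73.4 and 54.7 in KO soft, 44.4 and 45.7 in KO soft+IL-4 and 67.5 and 51.3 in KO stiff. Irf9 stood at 50.6 and 49.95 TPM in WT soft, 34.1 and 36.1 in WT soft+IL-4, 27.04 and 36.04 in WT stiff, 53.7 and 50.7 in KO soft, 43.8 and 38.2 in KO soft+IL-4 and 45.4 and 44.6 in KO stiff. Both genes were lower in the IL-4 and WT stiff libraries than in the others, and neither was called in WT stiff, at -0.97 ± 0.28 (adjusted p = 0.0607) for Stat2 and -0.67 ± 0.13 (adjusted p = 0.0117) for Irf9. Socs1, an inhibitor of the receptor kinases, rose from 11.7 and 5.08 TPM in WT soft to 158 and 123 with IL-4 and 151 and 123 in WT stiff, where both stiff libraries were alike, and stood at 37.3 and 30.5 in KO stiff, against 7.76 and 4.87 in KO soft (2.27 ± 0.32, adjusted p = 0.0559). In KO stiff against WT stiff, those that were higher included Irf7, Tlr9 and Cxcl10, and Socs1 was lower.

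Of the receptor genes other than Ifnar1, Ifngr1 shared part of the order of the members, but was highest in WT stiff 1, where most members were lowest. Ifnar2 stood at 122 and 145 TPM in WT soft, 127 and 136 in WT soft+IL-4, 187 and 131 in WT stiff, 119 and 163 in KO soft, 158 and 146 in KO soft+IL-4 and 105 and 146 in KO stiff. Ifngr1 stood at 181 and 222 TPM in WT soft, 140.2 and 135 in WT soft+IL-4, 397 and 130.2 in WT stiff, 182 and 227 in KO soft, 139 and 143 in KO soft+IL-4 and 165 and 209 in KO stiff. Ifngr2 stood at 160.1 and 177 TPM in WT soft, 161 and 176 in WT soft+IL-4, 131 and 164 in WT stiff, 163 and 173 in KO soft, 168 and 179 in KO soft+IL-4 and 166 and 172 in KO stiff. None of the receptor genes was called in WT stiff (Ifnar1 -0.35, Ifnar2 0.24, Ifngr1 0.18 and Ifngr2 -0.20). All IL-4 libraries and WT stiff 2 were below every soft and KO stiff library in Ifngr1, and WT stiff 1 was above them all. WT stiff 1 had the highest Ifnar2 and Ifngr1 and the lowest Ifngr2 of the 12 libraries.

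Ifi44, Xaf1 and the receptor gene Ifnar1 differed between replicates of the soft and KO stiff groups. Ifi44 stood at 7.78 and 72.7 TPM in WT soft, 5.17 and 4.72 in WT soft+IL-4, 0.791 and 15.01 in WT stiff, 5.83 and 77.5 in KO soft, 34.9 and 35.8 in KO soft+IL-4 and 6.41 and 62.1 in KO stiff. Xaf1 stood at 18.1 and 39.05 TPM in WT soft, 9.12 and 10.4 in WT soft+IL-4, 5.92 and 15.5 in WT stiff, 22.9 and 40.3 in KO soft, 21.98 and 24.3 in KO soft+IL-4 and 15.9 and 34.3 in KO stiff. Ifnar1 stood at 39.4 and 66.4 TPM in WT soft, 32.9 and 33.5 in WT soft+IL-4, 40.3 and 39.7 in WT stiff, 39.5 and 69.5 in KO soft, 55.2 and 60.6 in KO soft+IL-4 and 37.5 and 66.9 in KO stiff. Ifi44, a cytoplasmic protein of unclear biochemical role, was 9.35 times higher in WT soft 2 than in WT soft 1, 13.3 times higher in KO soft 2 than in KO soft 1 and 9.68 times higher in KO stiff 2 than in KO stiff 1, gaps that no other member showed between those libraries. Ifi44, Xaf1 (an antagonist of apoptosis inhibitors) and Ifnar1 were high in WT soft 2, KO soft 2 and KO stiff 2, where Camkk2 was low, and in all 3 KO soft+IL-4 stood above WT soft+IL-4. The part of this split between replicates in the other results was not tested. With IL-4, where the labels and Camkk2 go together, KO exceeded WT by 2.61 ± 1.49 (adjusted p = 1) in Ifi44 and by 1.16 ± 0.50 (adjusted p = 1) in Xaf1 in the model with all 12 libraries, whose error pools the 6 groups. With only the IL-4 libraries in the model, both Ifi44 and Xaf1 were called, 2 of 56 members, beside 19 of 11194 genes (964 with an unadjusted p under 0.05), while in the full model 0 were, 1 had an unadjusted p under 0.05, and 0% of all genes were called (233 with an unadjusted p under 0.05). Oasl1 was also higher in replicate 2 than in replicate 1 of WT soft (1.54 times), KO soft (1.80 times) and KO stiff (1.66 times), and higher in KO soft+IL-4 than in WT soft+IL-4. Other members split the opposite way in these groups. Among them were Gbp2 (replicate 2 at 0.568, 0.576 and 0.625 times replicate 1 in WT soft, KO soft and KO stiff), Ifit3 (0.648, 0.632 and 0.716) and Oasl2 (0.727, 0.719 and 0.724). Ifi44 lies on chromosome 3, Xaf1 on chromosome 11 and Oasl1 on chromosome 5, which also carries Camkk2.

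**Figure D5:**
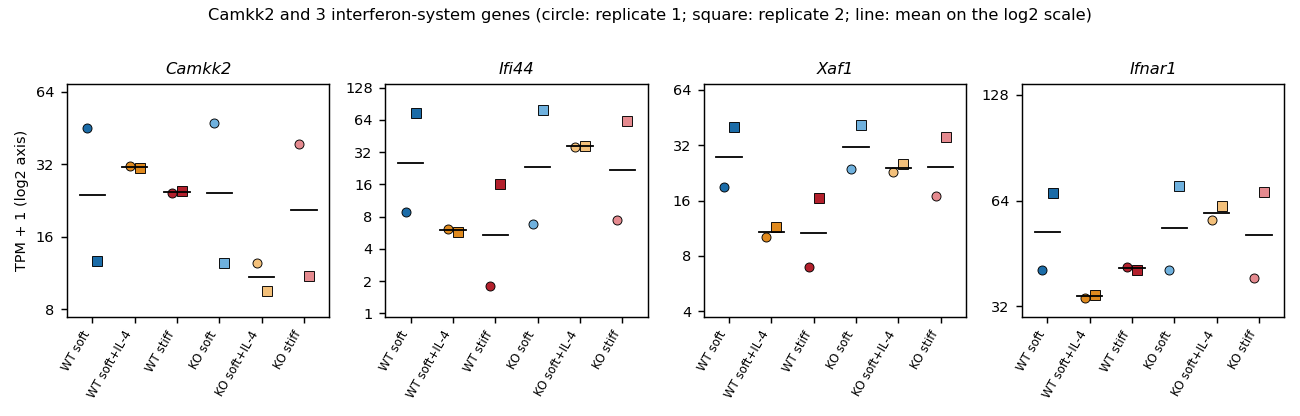
TPM + 1 on a log2 axis for Camkk2, Ifi44, Xaf1 and Ifnar1 in the 6 groups, with a circle for replicate 1, a square for replicate 2 and a line at the mean on the log2 scale. In the soft groups and in KO stiff the circle is high and the square low in Camkk2, and the reverse holds for Ifi44, Xaf1 and Ifnar1.

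Returning to the promoters, the ISRE letters were in 13 of 20 members with a window that fell in WT stiff (65%) and in 12 of 24 that were not called (50%), a description with no test. Ifit2, Oasl1, Oasl2 and Cmpk2 were among those that fell without these letters in the window, and Gbp2, Gbp3 and Bst2 were among those that held them and did not fall. For the GAS letters the counts were 5 of 20 and 7 of 24.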

How the data were processed

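Poly(A)-selected RNA of 12 libraries was sequenced, with 2 biological replicates per group. The TPM values of all libraries came in 1 file that the authors deposited, and the submitters' processing notes name Trim Galore 0.6.7, Salmon 1.4.0 and the genome build mm10, whereas the methods of the study also name STAR and featureCounts, so which tool gave the TPM values is uncertain. Read depth cannot be recovered from TPM, and no counting error is given. Genes that reached 1 TPM in 2 or more libraries were tested with limma 3.58.1 in R 4.3.3 on log2(TPM + 1), a scale that understates the change of low genes, with 1 mean per group, a mean-variance trend and Benjamini-Hochberg adjustment within each comparison. Steps were tested on simulated data. Members and lists were chosen with earlier results of these data known. Genes with values in every library were the highest, the 2 most and the 1 least different between WT stiff and WT soft in each functional group, the 3 with the smallest p in KO stiff against WT stiff and in each interaction, and the interferon factors, ligands and receptors; others named were chosen after their values were seen. A gene of the pathway list is not reported here. Gene positions are from GENCODE vM21 (GRCm38) and promoter windows from RefSeq. Transcript sharing between genes was counted as words of 31 bases. Alternatives were another pseudocount, no filter, median-of-ratios scaling, no fold limit, a replicate block, only the groups compared, and libraries left out. No promoter window was used for Oas2, Dhx58, Zbp1, Usp18, Parp9, Parp14, Iigp1, Mx1, Ly6e, Ifi27l2a, Rtp4 and Tor3a.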

Additional observations from a re-analysis of the deposited data

Results flagged for a closer look

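By the interaction term of limma, the difference between stiff and soft gel differed between libraries labelled WT and KO for 3 members. KO soft 1, KO stiff 1 and WT soft 2 go against these labels in Camkk2. Ifit3b had an interaction of 3.037 ± 0.456 (SE, adjusted p = 0.0182), Slfn8 of 1.47 ± 0.255 (adjusted p = 0.0303) and Ly6e of 1.142 ± 0.198 (adjusted p = 0.0303), in log2(TPM + 1). In each of them both KO stiff libraries stood above both WT stiff libraries, and WT stiff 1 was the lowest of the 12 libraries. Camkk2 itself stood at 37.7 TPM in KO stiff 1, above the 23.3 and 23.7 of WT stiff. The number of members called was 38 without WT stiff 2 (894 of 11194 genes), 8 without WT stiff 1 (152 genes) and 0 without any 1 of the WT soft, KO soft or KO stiff libraries. A pseudocount of 0.1 left Ly6e and Slfn8 called, beside 68 of 11194 genes. Median-of-ratios scaling left Ifit3b alone, beside 72 of 11194 genes, and so did no filter on low values, beside 60 of 14098. Transcripts of Ifit3b and Slfn8 share words with close relatives.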

How the results depend on the processing

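The members' median difference had the same sign as in the report under every alternative run for WT soft+IL-4, WT stiff and KO soft+IL-4 against their soft groups and for KO stiff against WT stiff. The number called changed more. With no fold limit 17 members were called with IL-4 in WT and 14 in KO (the share over all genes is not given here). With only the groups compared in the model the numbers were 18 (17 lower and 1 higher, Gbp2) with IL-4 in WT and 15 with IL-4 in KO. Over all 11194 genes they were 523 and 519. In KO soft+IL-4 against WT soft+IL-4 the number was 2, beside 19 genes. In WT stiff against WT soft, in KO stiff against WT stiff and for the interaction of genotype and stiffness the numbers were 0, as over all genes. Without the libraries labelled WT soft 2, KO stiff 1 and KO soft 1 they were 0 with IL-4 in WT, 3 in WT stiff, 0 with IL-4 in KO, 0 in KO stiff against WT stiff and 0 for the interaction. Median-of-ratios scaling gave 5 with IL-4 in KO, 10 in KO stiff against WT stiff and 1 (Ifit3b) for the interaction. Over all 11194 genes it gave 398, 215 and 72. No filter on low values gave 10 in KO stiff against WT stiff and 1 (Ifit3b) for the interaction, beside 180 and 60 of 14098 genes. A pseudocount of 0.1 gave 5 with IL-4 in KO, beside 444 of 11194 genes, and called Ly6e and Slfn8 for the interaction. Leaving out 1 library at a time, the number called ranged from 3 to 5 with IL-4 in WT, 11 to 41 in WT stiff, 0 to 27 in WT stiff against WT soft+IL-4, 2 to 3 with IL-4 in KO, 3 to 41 in KO stiff against WT stiff and 0 to 38 for the interaction. The medians then ranged from -1.76 to -0.706, from -1.022 to 0.02 for WT stiff against WT soft+IL-4, from 0.527 to 1.6 for KO stiff against WT stiff and from 0.537 to 1.555 for the interaction. Over all genes, the number called was also lower without the libraries labelled WT soft 2, KO stiff 1 and KO soft 1 in each comparison named for that setting. The cause of these changes was not tested.

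Among single members, Usp18 in WT stiff became -0.025 without those 3 libraries and ranged from -0.16 to 0.337 when 1 library was left out, and Gbp2 became -0.38 and ranged from -1.141 to 1.181. With 1 library left out, Samhd1 in WT stiff ranged from -0.975 to 0.252 and Tor3a from -0.791 to 0.062, both highest without WT stiff 1. Tor3a with IL-4 became -0.043 without the 3 libraries and ranged from -0.043 to 0.118 with 1 left out. With the replicate block the numbers called were 11 with IL-4 in WT, 25 in WT stiff, 9 with IL-4 in KO, 18 in KO stiff against WT stiff and 3 for the interaction. Over all 11194 genes they were 427, 449, 418, 224 and 90 in the same order. Libraries with the same number deviated together, with correlations over 0.1, only among WT soft, KO soft and KO stiff (0.283 to 0.314), and were -0.0526 to 0.0905 for the other pairs of groups. Those are the 3 groups in which Camkk2 was high in replicate 1 and low in replicate 2. A pairing of the libraries, which the labels do not state, and that split in Camkk2 cannot be told apart. With the block 0 members were called in KO stiff against KO soft and in KO soft against WT soft, as without it, beside 7 and 0 genes. Depth is unknown, so members near 0, such as Iigp1, have no counting error.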
